A study of Mus musculus with 2 samples.

Results

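The proteasome genes of pressure-loaded mouse hearts were compared between 2 RNA sequencing libraries. The members are the protein-coding genes whose GENCODE M21 symbol begins with Psma to Psmg and a number, without the immunoproteasome genes Psmb8, Psmb9 and Psmb10. The rule found 47 genes among the 55401 counted, and 45 of the 47 reached 1 CPM (a count relative to the scaled library size) in at least 1 library. One of the 47, Psmc3ip, shares only its name with the complex: it encodes a partner of the ATPase subunit that is known for its work in meiotic recombination. Both libraries were made from C57BL/6 hearts that had undergone transverse aortic constriction (TAC), surgery that narrows the aorta and loads the left ventricle with pressure. One library carries the treatment label TAC and the other TAC with Dioscin, a plant steroidal saponin; the protocol gives 4 weeks of dioscin in the same words for both, so the first is taken as TAC alone from its treatment label. Both groups thus carry the surgery, and hearts without it were not analysed here. Each group had 1 library, and the sources used here give neither the number of hearts in a library nor the age or sex of the mice.

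The proteasome is the enzyme complex that degrades proteins tagged with ubiquitin. Its 20S core is a barrel of alpha and beta rings, and 3 beta subunits carry the cutting sites. The 19S cap binds the ubiquitin chain, removes it, unfolds the protein with a ring of ATPases and feeds it into the barrel. Interferon induces an alternative set of cutting subunits, the immunoproteasome, and the PA28 activator. Heart muscle relies on this machinery to renew its contractile proteins.

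Counts in genes came to 16782741 with TAC alone and 17612259 with dioscin, of which mitochondrially encoded genes took 31.6% and 25.5%. Values below are given in that order. Counts were scaled by TMM, which uses the genes that differ little between libraries, and are given as CPM. A ratio is the level with dioscin divided by the level with TAC alone, with its exact 95% Clopper-Pearson counting interval in parentheses. That interval covers counting error only, since 1 library a group shows nothing of the spread between hearts and allows no test of the treatment. A gene counted as higher or lower by the size rule when it reached 1 CPM, differed at least 2-fold and had an interval that left out 1.

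Most genes of the standard proteasome were more abundant in the dioscin library. All 31 measured members that encode subunits of the 20S core and the 19S cap had a ratio above 1, from 1.12 for Psma3 to 2.50 for Psmd7. All 31 intervals lay wholly above 1, as did 35.1% of those of all genes. The levels of the 31 summed to 1780 CPM with TAC alone and 2674 CPM with dioscin, a ratio of 1.503 (1.48 to 1.52). Most differences were small, and 3 of the 31 (Psmd7, Psmd13 and Psma6) passed the size rule as higher, against 10.5% of all genes. The 31 leave out the cap subunits Sem1 and Adrm1, whose symbols fall outside the member rule. Sem1 had 1791 and 1709 counts, a ratio of 0.963 (0.900 to 1.03), and Adrm1 had a ratio of 1.22 (1.11 to 1.35). Among the assembly chaperones and the activators some intervals lay above 1, some below and some included 1, and those of the 3 immunoproteasome genes lay below.

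Over the 45 measured members, 35 had an interval wholly above 1, 4 wholly below 1, and 6 included 1. Among all 15697 genes at or above 1 CPM, 35.1% had an interval above 1 and 32.1% below, and among the 13219 protein-coding genes 36.8% and 32.5%. The ratio itself exceeded 1 in 38 members, against 50.6% of all genes. The size rule called 3 members as higher and 0 as lower, against 10.5% and 8.77% of all genes and 9.8% and 7.27% of protein-coding genes. The median log2 ratio of the members was 0.36, or 0.41 without Psmc3ip, against 0.01 over all genes and 0.02 over protein-coding genes. The middle 50% of the members spanned 0.469 on the log2 scale and that of all genes 0.947. The members thus lay mostly above the median of all genes, at less than 2-fold.

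**Figure D1:**
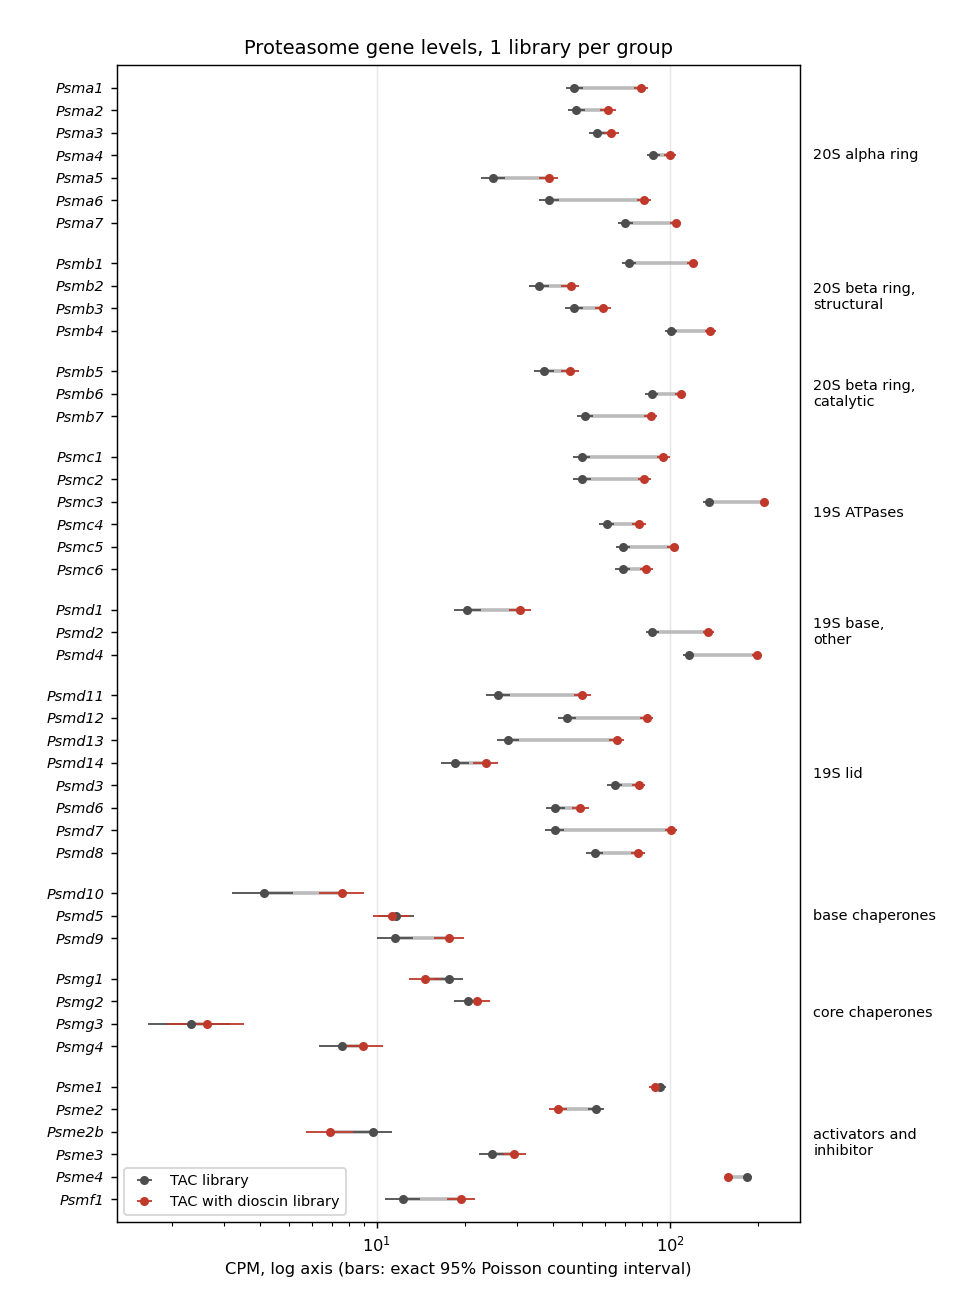
Level of each measured proteasome gene in CPM (log axis) in the TAC library (grey) and the TAC with dioscin library (red), ordered by role, with exact 95% Poisson intervals of the counts. The red point lies to the right of the grey point for all 31 measured members of the 20S core and 19S cap. It lies to the left for Psmd5, Psmg1, Psme1, Psme2, Psme2b and Psme4, of which the ratio intervals of Psmd5 and Psme1 include 1. Psmc3ip is not drawn.

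The alpha ring closes the ends of the barrel and gates the entry of substrates. Psma6 (ENSMUSG00000021024.14, chromosome 12, 55384222 to 55418454 on GRCm38) had 667 counts with TAC alone and 1394 with dioscin. Those are 38.6 and 81.4 CPM, a ratio of 2.11 (1.92 to 2.32), the highest of the ring. It passed the size rule here but fell short of it, at a log2 ratio of 0.99, when libraries were scaled by total counts. Psma1 had a ratio of 1.69 (47.2 and 79.8 CPM), Psma5 1.54 (24.96 and 38.6 CPM) and Psma7 1.48 (70.4 and 104 CPM). The lower part of the ring was formed by Psma2 at 1.28 (47.9 and 61.3 CPM), Psma4 at 1.14 (87.6 and 100.3 CPM) and Psma3. Psma3 had 972 and 1079 counts, 56.3 and 63.0 CPM, a ratio of 1.12 (1.03 to 1.22). All 7 measured subunits lay above 1, with a median log2 ratio of 0.57, although they form 1 ring in equal numbers. Psma8, the testis form of the subunit that Psma7 encodes, had 3 counts and 2 counts, so its level was not distinguishable from the limit that 0 counts allows (3 counts, or 0.174 and 0.175 CPM).

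The beta rings hold the cutting sites. Of the subunits without a cutting site, Psmb1 had 72.3 and 119.7 CPM, a ratio of 1.66 (1.54 to 1.78), the highest of the 4. Psmb4 had 100.6 and 137 CPM (1.37), and Psmb2 had 35.8 and 45.7 CPM (1.28). Psmb3 had 811 and 1011 counts, 47.0 and 59.1 CPM, a ratio of 1.26 (1.15 to 1.38), the lowest. The 4 subunits had a median log2 ratio of 0.40.

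The subunits with a cutting site lay in the same range. Psmb5, which carries the chymotrypsin-like site (ENSMUSG00000022193.7, chromosome 14, 54614119 to 54618022), had 641 and 778 counts, 37.1 and 45.5 CPM, a ratio of 1.22 (1.10 to 1.36). Psmb6, with the caspase-like site, had 1496 and 1860 counts, 86.6 and 109 CPM, a ratio of 1.25 (1.17 to 1.34). Psmb7, with the trypsin-like site, had 886 and 1473 counts, 51.3 and 86.1 CPM, a ratio of 1.68 (1.54 to 1.83). Psmb7 thus lay apart from the other two, whose intervals overlap each other and not its own. Nek6 lies on the opposite strand over 11.8% of the exons of Psmb7, and Mir686 on the same strand over 12.1% of those of Psmb5. Psmb11, the subunit of the thymus, had 0 counts in both libraries.

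The immunoproteasome subunits, which replace these 3 in newly built particles, lay in the opposite direction. Psmb8, the counterpart of Psmb5, had 1041 and 596 counts, 60.3 and 34.8 CPM, a ratio of 0.58 (0.52 to 0.64). Psmb9, the counterpart of Psmb6, had 506 and 225 counts, 29.3 and 13.1 CPM, a ratio of 0.45 (0.38 to 0.53), and passed the size rule as lower. Psmb10, the counterpart of Psmb7, had 1233 and 741 counts, 71.4 and 43.3 CPM, a ratio of 0.61 (0.55 to 0.66). The balance within each pair can be read from the counts of 1 library, so that the scaling between libraries does not enter. The count of Psmb8 per count of Psmb5 was 1.62 with TAC alone and 0.766 with dioscin, 2.12 times lower (1.83 to 2.46, exact conditional interval of counting error). The same quotient for Psmb9 and Psmb6 was 2.80 times lower (2.35 to 3.33), and for Psmb10 and Psmb7 2.77 times lower (2.44 to 3.14).

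**Figure D2:**
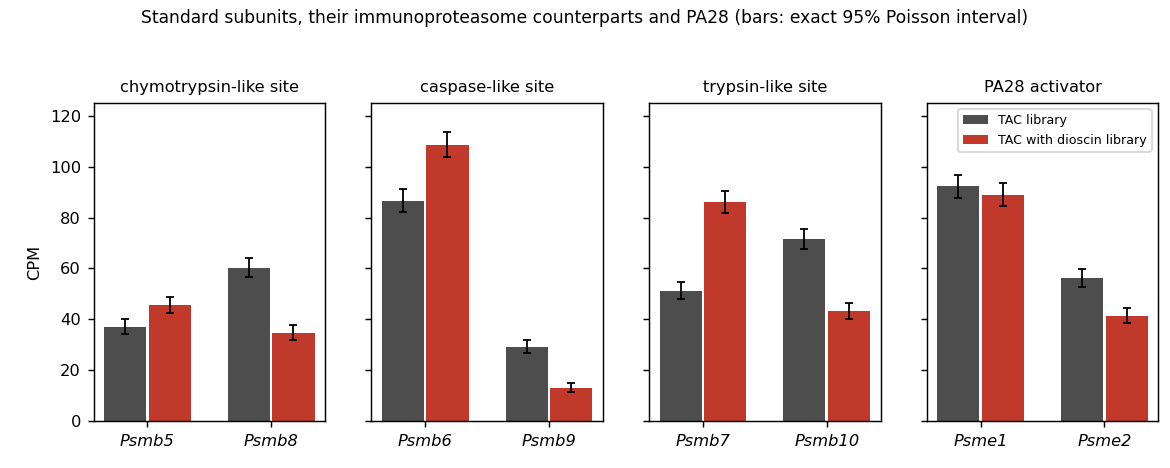
Level in CPM of the 3 standard catalytic subunits, of their immunoproteasome counterparts and of the PA28 activator genes in the TAC library (grey) and the TAC with dioscin library (red), with exact 95% Poisson intervals of the counts. In each of the 3 pairs the standard subunit is higher and its counterpart lower in the dioscin library. The pair Psme1 and Psme2 has ratios of 0.965 and 0.740.

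Levels of different genes compare only per length. Per kilobase of the transcript that the annotation marks as principal, Psmb8 stood at 0.897 of the level of Psmb5 with TAC alone and at 0.423 with dioscin. Psmb9 stood at 0.200 and 0.0714 of Psmb6, and Psmb10 at 1.23 and 0.445 of Psmb7. With the length of all annotated exons in its place, the level of Psmb8 was 0.432 and 0.204 of that of Psmb5, and that of Psmb10 2.79 and 1.01 of that of Psmb7. The order of Psmb10 and Psmb7 in the dioscin library therefore depends on the length used. The shift of each pair between libraries cannot, since the same lengths divide both libraries.

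The 6 ATPases of the cap form the ring that unfolds substrates. Psmc1 was the highest of them by ratio, with 862 and 1625 counts, 49.9 and 94.9 CPM, and a ratio of 1.90 (1.75 to 2.07). Psmc2 followed at 1.63 (50.1 and 81.7 CPM), then Psmc3 at 1.55 (135 and 209.7 CPM) and Psmc5 at 1.49 (69.1 and 103 CPM). Psmc4 had a ratio of 1.29 (60.8 and 78.2 CPM). Psmc6 was the lowest, with 1191 and 1420 counts, 69.0 and 83.0 CPM, and a ratio of 1.20 (1.11 to 1.30). All 6 lay above 1 and none passed the size rule, with a median log2 ratio of 0.60.

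The base also holds the ubiquitin receptor Psmd4 and the large scaffold subunits Psmd1 and Psmd2. Psmd4 had 2003 and 3383 counts, 116 and 198 CPM, a ratio of 1.70 (1.61 to 1.80). Psmd2 had 86.9 and 135 CPM (1.56). Psmd1 had 351 and 527 counts, 20.3 and 30.8 CPM, a ratio of 1.51 (1.32 to 1.74). These 3 subunits had the narrowest range of the core and cap groups, with log2 ratios between 0.60 and 0.77.

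The lid, which docks on the base and removes the ubiquitin chain, held the widest range. Psmd7, the partner of the deubiquitinating subunit (ENSMUSG00000039067.5, chromosome 8, 107580381 to 107588464), had 699 and 1730 counts, 40.5 and 101 CPM, a ratio of 2.50 (2.29 to 2.73). Psmd13, a scaffold subunit (ENSMUSG00000025487.15, chromosome 7, 140881968 to 140898643), had 484 and 1127 counts, 28.0 and 65.8 CPM, a ratio of 2.35 (2.11 to 2.62). Both passed the size rule under all scalings tried. For Psmd13, the gene Sirt3 lies on the opposite strand over 10.1% of its exons. Psmd11 and Psmd12, scaffold subunits of the same fold, lay just inside 2-fold at 1.94 (25.8 and 50.2 CPM) and 1.87 (44.5 and 83.3 CPM). Psmd8 had a ratio of 1.41 (55.3 and 77.9 CPM). Psmd14, the deubiquitinating subunit, had 320 and 402 counts, 18.5 and 23.5 CPM, a ratio of 1.27 (1.09 to 1.47). Psmd7 and Psmd14 act as a pair. The count of Psmd7 per count of Psmd14 was 2.18 with TAC alone and 4.30 with dioscin, 1.97 times higher (1.65 to 2.35). This pair was chosen after its values were seen, and Psmd7 has the highest ratio of all members, so the quotient is a description only. The lowest of the lid members were Psmd6 at 1.22 (40.6 and 49.4 CPM) and Psmd3, with 1119 and 1336 counts, 64.8 and 78.1 CPM and a ratio of 1.20 (1.11 to 1.31). The 8 lid genes had a median log2 ratio of 0.70.

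The cap as a whole differed a little more than the core. The 17 cap genes had a summed ratio of 1.58 (1.55 to 1.61) and a median log2 ratio of 0.63, and the 14 measured core genes 1.41 (1.38 to 1.44) and 0.40. The summed count of cap genes per count of core genes was 1.21 with TAC alone and 1.36 with dioscin, 1.12 times higher (1.09 to 1.16, counting error only).

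**Figure D3:**
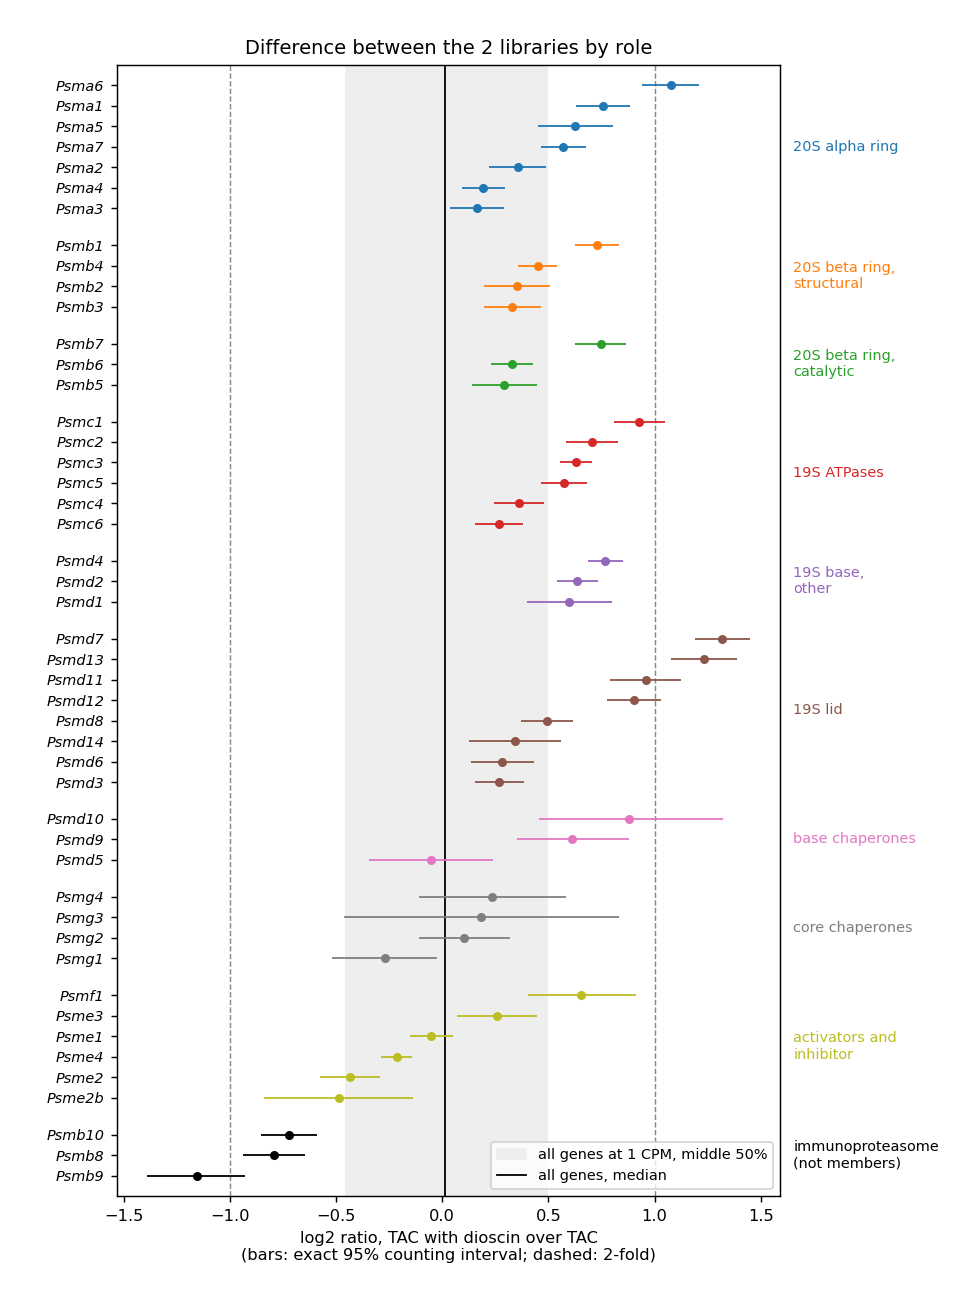
Log2 ratio, dioscin divided by TAC alone, for each measured member by role, and for the 3 immunoproteasome genes, with exact 95% counting intervals. The black line is the median of all genes at or above 1 CPM (0.01), the grey band holds their middle 50%, and the dashed lines mark 2-fold. All measured core and cap members lie to the right of the median, and the immunoproteasome genes lie to its left.

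Assembly chaperones guide the subunits into place and leave the finished particle. Of those for the base, Psmd10 had 71 and 130 counts, 4.11 and 7.59 CPM, a ratio of 1.84 (1.37 to 2.50). Psmd9 had 199 and 302 counts, 11.5 and 17.6 CPM, a ratio of 1.53 (1.28 to 1.84), with an opposite-strand non-coding gene over 25.5% of its exons. Psmd5 had 201 and 192 counts, 11.6 and 11.2 CPM, a ratio of 0.964 (0.787 to 1.18), so that the base chaperones were split.

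The core chaperones Psmg1 to Psmg4 pair up to build the alpha ring, and of the 4 only Psmg1 had an interval that left out 1, below it. Psmg1 had 304 and 250 counts, 17.6 and 14.6 CPM, a ratio of 0.830 (0.699 to 0.984). Its partner Psmg2 had 352 and 375 counts, 20.4 and 21.9 CPM, a ratio of 1.07 (0.927 to 1.25). Psmg3 had 40 and 45 counts, a ratio of 1.13 (0.725 to 1.78), and its partner Psmg4 had 131 and 153 counts, 7.59 and 8.94 CPM, a ratio of 1.18 (0.927 to 1.499). These 3 ratios lay above 1, with intervals that include 1 and overlap those of several alpha subunits. The 4 genes summed to 47.9 and 48.1 CPM, a ratio of 1.00 (0.911 to 1.11). Psmg3 is the least abundant of them, and a difference within its interval was not detectable at this depth.

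The activators and the inhibitor went both ways. Psme1 and Psme2 encode the subunits of PA28, which opens the barrel without ubiquitin and is induced by interferon. Psme1 had 1593 and 1524 counts, 92.2 and 89.0 CPM, a ratio of 0.965 (0.899 to 1.04). Psme2 had 968 and 710 counts, 56.1 and 41.5 CPM, a ratio of 0.740 (0.671 to 0.816), and its intronless copy Psme2b had 167 and 118 counts, 9.67 and 6.89 CPM, a ratio of 0.714 (0.558 to 0.908). The values of Psme2 and Psme2b are uncertain as separate values, since 82.5% of the transcript of Psme2 matches Psme2b and 94.9% of that of Psme2b matches Psme2. Against the core and cap genes, the summed count of Psme1, Psme2 and Psme2b was 0.0888 with TAC alone and 0.0514 with dioscin, 1.73 times lower (1.63 to 1.83).

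The other activators are nuclear. Psme3, which encodes PA28-gamma, had 425 and 504 counts, 24.6 and 29.4 CPM, a ratio of 1.20 (1.05 to 1.36). Psme4, which encodes PA200, an activator that acts on acetylated histones, had 3170 and 2708 counts, 184 and 158 CPM, a ratio of 0.862 (0.818 to 0.907). Psmf1, an inhibitor of the core in vitro, had 212 and 331 counts, 12.3 and 19.3 CPM, and the highest ratio of the group at 1.57 (1.32 to 1.88). None of the 6 genes passed the size rule, and their median log2 ratio was -0.13. Psmc3ip had 109 and 104 counts, a ratio of 0.963 (0.729 to 1.27), with the gene Mlx on the opposite strand over 21.2% of its exons.

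Marker lists differed between the libraries as well. Of all genes, 10.5% were higher and 8.77% lower by the size rule, with 35.1% of intervals above 1 and 32.1% below. Of 14 interferon response genes, 8 were lower by the size rule and 0 higher, all 14 had intervals below 1, and they summed to 1598 and 1054 CPM. The 6 measured of 7 B cell markers were all lower, with 33.1 and 8.35 CPM in sum. Atrial muscle markers were higher with dioscin (6 of 6 measured of 7), with 594 and 17549 CPM in sum and Mybphl and Bmp10 at 0 counts with TAC alone. Mesothelial markers were higher in 7 of 8 cases (18.5 and 153 CPM, Krt8 and Krt18 at 0 with TAC alone). Fat cell markers were higher in all 5 measured of 7 (0.811 and 31.1 CPM, Cidec, Plin1 and Retn at 0 with TAC alone and Lep at 0 in both). The 8 genes listed as ventricular muscle markers, most of which atrial muscle also expresses, summed to 50849 and 60157 CPM, with 7 intervals above 1, 1 below, 0 past the size rule and a median log2 ratio of 0.39. The 1 below was the ventricular light chain Myl2, with 8800 and 6907 CPM and a ratio of 0.785 (0.779 to 0.791), named after its value was seen. The part of these cells and genes in the proteasome ratios was not tested. In RNA of bulk heart tissue a different number of cells of a type and a different amount of RNA per cell cannot be told apart.

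Most genes of the ubiquitin supply had intervals above 1. Of 18 genes of ubiquitin and its activating (E1) and conjugating (E2) enzymes, 2 were higher and 1 lower by the size rule, close to the 10.5% and 8.77% of all genes, and 16 had intervals above 1 (35.1% of all genes), with a median log2 ratio of 0.38. Ubb, a gene of tandem ubiquitin repeats and the most abundant of the list, had 350.5 and 704 CPM, a ratio of 2.01 (1.95 to 2.07). Ube2g2, an E2 enzyme of the endoplasmic reticulum, had a ratio of 2.02 (1.84 to 2.23). Both fell short of 2-fold when libraries were scaled by total counts (log2 ratios of 0.92 and 0.93), by nuclear counts (0.80 and 0.81) or with a trend on GC content and exon length removed (0.87 and 0.93), and Ubb also with DESeq2 size factors (0.99). Ube2c, an E2 enzyme of mitosis, had 50 and 14 counts and was 3.45 times lower (1.93 to 6.93). Ubb repeats 1 coding unit, so its count is uncertain.

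Among 15 genes of the unfoldase p97 and its partners at the endoplasmic reticulum, 1 was higher and 0 lower by the size rule. The shares of all genes were 10.5% and 8.77%. Of the 15, 10 had intervals above 1 and 3 below (35.1% and 32.1% of all genes), and the median log2 ratio was 0.42. Herpud1, which acts in degradation at the reticulum, had 912 and 2592 counts and a ratio of 2.87 (2.66 to 3.10). Vcp, p97 itself, the most abundant of the list, had 121 and 218 CPM, a ratio of 1.80 (1.71 to 1.90). Of 17 measured accessory subunits, assembly factors and shuttle proteins, 1 was higher and 0 lower (10.5% and 8.77% of all genes), with a median of 0.16. It was the shuttle Ubqln2, with 147 and 306 counts and a ratio of 2.096 (1.72 to 2.57). The most abundant of that list was Ecpas, which tethers core and cap, at 146 and 171 CPM. Pomp, which matures the core, had a ratio of 1.10 (1.01 to 1.19).

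**Figure D4:**
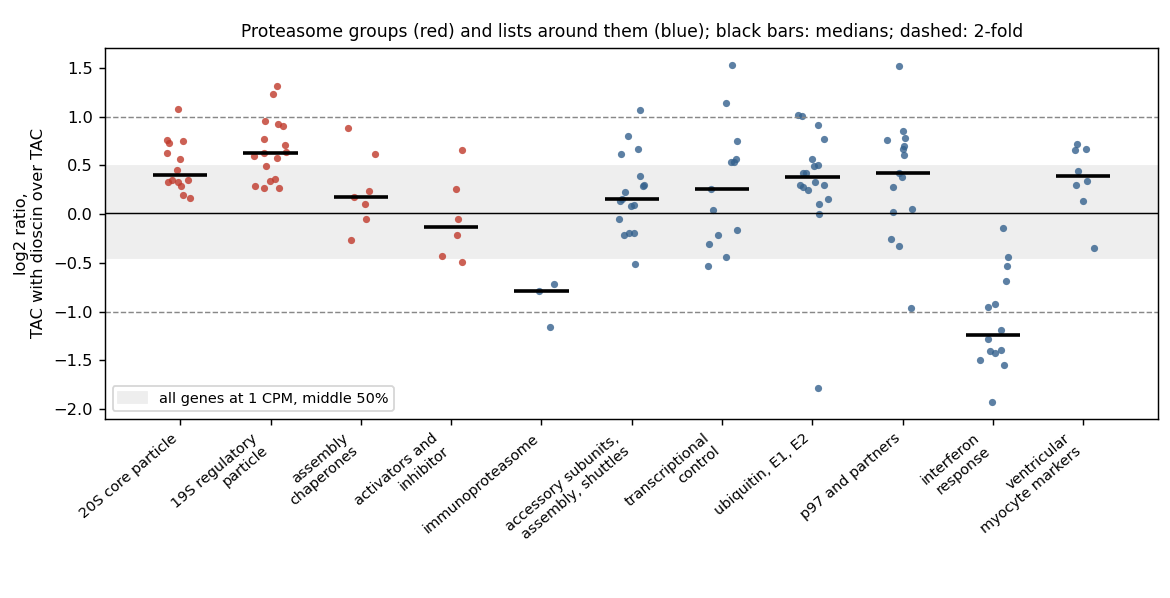
Log2 ratio of each measured gene in the proteasome groups (red), and in the lists around them with interferon response and ventricular muscle markers (blue). Black bars mark medians, the grey band the middle 50% of all genes at or above 1 CPM, and dashed lines 2-fold. Medians lie at 0.40 for the 20S core members, 0.63 for the 19S cap members, -0.79 for the immunoproteasome and -1.24 for the interferon response.

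Transcription of proteasome genes is known to be driven by Nfe2l1, a factor anchored in the endoplasmic reticulum that Ngly1 deglycosylates and Ddi2 cleaves into its active form. Nfe2l1 had 2657 and 3886 counts, 154 and 227 CPM, a ratio of 1.48 (1.40 to 1.55). Ddi2 had 69.5 and 100.4 CPM, a ratio of 1.44 (1.34 to 1.56), and Ngly1 had a ratio of 1.20 (1.06 to 1.35). Its relative Nfe2l2, the factor of the antioxidant response, had a ratio of 1.03 (0.967 to 1.10). Of the 13 genes of this list 2 were higher and 0 lower by the size rule (10.5% and 8.77% of all genes), with a median log2 ratio of 0.26. They were Foxo3, a factor of muscle atrophy programmes, with 362 and 1040 counts and a ratio of 2.90 (2.57 to 3.28), and Maff, a small Maf partner, with 165 and 362 counts and a ratio of 2.21 (1.84 to 2.68). Of the 13, 7 had intervals above 1 and 4 below (35.1% and 32.1% of all genes). Those below were Nfya (ratio 0.690), Mafg (0.737), Nfyc (0.810) and Keap1 (0.893).

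Nfe2l1 and Nfe2l2 bind the antioxidant response element, so its core letters TGACNNNGC were searched on both strands in the RefSeq promoters (GRCm38.p6, 250 bases before to 50 after each start). Promoters were found for 39 of the 47 members. The letters occur in 6 of the 39 (15.4%) and in 14.8% of the 17492 protein-coding genes with a promoter. The 6 stretches are shown because they are the 6 matched members with these letters, which are in capitals between up to 10 flanking bases on each side, on the strand of the gene.
Psmb5, chr14:54618024-54618052, minus strand: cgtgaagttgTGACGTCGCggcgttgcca
Psmb6, chr11:70525338-70525366, plus strand: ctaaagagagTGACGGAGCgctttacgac
Psmc6, chr14:45329587-45329615, plus strand: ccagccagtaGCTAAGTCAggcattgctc
Psmd12, chr11:107479278-107479299, plus strand: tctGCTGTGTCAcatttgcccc
Psmd9, chr5:123228149-123228177, plus strand: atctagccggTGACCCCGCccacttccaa
Psme4, chr11:30771758-30771786, plus strand: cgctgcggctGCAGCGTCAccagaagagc
These 6 genes had ratios from 0.862 (Psme4) to 1.87 (Psmd12), and neither Psma6 nor Psmd13 is among them. Psmd7 was not matched to a promoter. The CCAAT letters, on both strands, occur in 14 of the 39 members (35.9%) and in 42.3% of protein-coding genes.

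Other letter strings were searched after sequences and values had been seen. CCGGAAG, the core bound by ETS factors, occurs on either strand in 15 of the 39 members (38.5%) and in 12.9% of protein-coding genes. It is found in the promoters of 10 of 26 core and cap genes (38.5%, the share of all members), Psmd13 and Psma6 among them. The other members with it are Psmg1 (ratio 0.830), Psme4 (0.862), Psmc3ip (0.963), Psmg3 (1.13) and Psme3 (1.20). The promoter of Psmd13, the member with the second highest ratio, is printed with its match in capitals.
Psmd13, chr7:140882144-140882443, plus strand: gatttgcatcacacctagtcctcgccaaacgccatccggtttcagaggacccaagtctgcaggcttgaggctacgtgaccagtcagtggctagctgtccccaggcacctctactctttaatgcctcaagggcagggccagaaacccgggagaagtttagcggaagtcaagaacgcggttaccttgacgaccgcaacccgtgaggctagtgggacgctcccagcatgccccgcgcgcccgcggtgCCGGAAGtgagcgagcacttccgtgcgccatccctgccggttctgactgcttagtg
A form of the interferon-stimulated response element, GAAA, any 2 bases, then GAAA, occurs on either strand in 5 of the 39 members (12.8%) and in 3.94% of protein-coding genes. Among the activators it is found only in Psme1 (ratio 0.965), just after the start, and it is not found in the promoters of Psmb8, Psmb9 or Psmb10. The other members with it are Psmb3 (1.26), Psmd4 (1.70), Psmd9 (1.53) and Psmg4 (1.18). The promoter of Psme1 is shown with the match in capitals, as the reverse complement.
Psme1, chr14:55578244-55578543, plus strand: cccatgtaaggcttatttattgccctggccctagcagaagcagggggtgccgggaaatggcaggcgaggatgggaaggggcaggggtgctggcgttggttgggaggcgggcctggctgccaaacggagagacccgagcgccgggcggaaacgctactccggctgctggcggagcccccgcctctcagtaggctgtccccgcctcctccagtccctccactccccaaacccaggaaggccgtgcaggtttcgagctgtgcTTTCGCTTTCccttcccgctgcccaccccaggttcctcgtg
No matches of different strings overlapped in these promoters. A match describes letters in a window of 300 bases and says nothing of a factor bound there.

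Copies elsewhere in the genome limit 9 of the measured members. For Psma4, Psma5, Psmb3, Psmb5, Psmc1, Psmd2, Psmd11, Psme2 and Psme2b more than 50% of the longest coding transcript matches another gene at 95% identity or more. For Psmd2 the match to the pseudogene Gm5422 covers 98.2% of the transcript. The count files hold reads with several alignments on a line of their own, so the levels of these genes are uncertain. The 24 core and cap genes left without them had a median log2 ratio of 0.57, and all 31 had 0.57. That all 24 intervals lay above 1 follows from the same result for the 31.

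Per kilobase of principal transcript, the core and cap genes spanned from 6.53 CPM for Psmd1 to 109 CPM for Psmb6 with TAC alone, although the particle holds its subunits in fixed numbers. With dioscin they spanned from 9.89 for Psmd1 to 148 for Psmd4. Among the chaperones Psmg2 was the most abundant on that scale (19.2 and 20.7 CPM per kilobase) and Psmg3, at 2.62 and 2.98, and Psmd5, at 2.65 and 2.55, were the lowest. Across 44 measured members without Psmc3ip, the log2 ratio had a Spearman coefficient of -0.11 with GC content, 0.15 with exon length and 0.04 with the level with TAC alone, as a description of genes that share the same 2 libraries.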

How the data were processed

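Total RNA of frozen hearts was isolated with Trizol and prepared with an Illumina TruSeq kit, per the labels' protocols. The authors deposited unnormalized counts for each gene, and HISAT2 2.1.0, HTSeq and mm10 are named in the submitters' processing notes. Annotation release, HTSeq version and strand setting are not given in the sources used here. In each file 5 closing lines of reads given to no gene stayed out of library sizes. Reads with several alignments made up 38.2% and 36.5% of all lines counted in the TAC and dioscin libraries.

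Symbols, gene types and exon lengths came from GENCODE M21 (GRCm38, the build that mm10 names), in which 55141 of 55401 identifiers matched without their version. TMM scaling was done by edgeR 4.0.16 under R 4.3.3. Log2 ratios and the folds made from them used a pseudocount of 0.5. Intervals were computed with SciPy 1.17.1 and copies were found with BLAST 2.17.0 over at least 75 bases. Simulated data with known folds were used to test the rule's script. Alternatives changed the scaling (total counts, nuclear counts, DESeq2 1.42.0 size factors), the CPM filter, the pseudocount, the fold, and a trend on GC content and exon length. Alternatives for the core and cap counts, the pathway lists and the named genes, and the principal transcript length, were added after seeing the data. The members, lists and rules were chosen with earlier results of these data known. Every member is named. Full values went to members past the size rule, to the highest and lowest of each role, and to the catalytic pairs. Of each pathway list, the genes past the size rule and the most abundant were named, and marker lists are given by counts and sums. Nfe2l2, Ddi2, Ngly1, Pomp, Sem1, Adrm1, Nfya, Mafg, Nfyc and Keap1 were chosen after their values were seen. So were the comparison of Psmd7 with Psmd14 and the other count quotients.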

Additional observations from a re-analysis of the deposited data

How the results depend on the processing

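No paired analysis was possible because each group has 1 library, and for the same reason no replicate could be left out. The recomputed core and cap counts and pathway lists were chosen after seeing the data. The ratios of all 31 core and cap genes stayed above 1 under total counts (30 with intervals above 1) and DESeq2 size factors (31). A CPM filter alters no ratio, so the other filters could not change this. Scaling by nuclear counts lowered the median log2 ratio of all genes from 0.01 to -0.21, and 29 of the 31 stayed above 1 (22 with intervals above 1). Psma3, Psma4, Psmg2 and Psmg3 then changed sign, as did Psma4 and Psmg2 once a trend on GC content and exon length was removed. With that trend removed, 30 of the 31 core and cap ratios stayed above 1 (25 with intervals above 1). Relative to the median of all genes, the members' median was higher by 0.35 with TMM and by 0.36 with nuclear counts. By the size rule 1655 genes were higher and 1377 lower with TMM, and 1275 and 2286 with nuclear counts. A threshold of 1.5-fold called 18 members as higher and 0 as lower, against 3 and 0 at 2-fold. Of all genes, 20.3% were higher and 17.9% lower at 1.5-fold. Psma6 passed the size rule with TMM and DESeq2 size factors only among the scalings, with log2 ratios of 0.99, 0.87 and 0.81 under total counts, nuclear counts and the removed trend.

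With nuclear counts the median log2 ratios were 0.157 for the members, 0.363 for the alpha ring, 0.195 and 0.121 for the structural and catalytic beta subunits, 0.396 for the ATPases, 0.432 for the other base subunits, 0.493 for the lid and -0.338 for the activators and inhibitor. They were -0.997 for the immunoproteasome, 0.174 for ubiquitin and its enzymes, 0.218 for p97 and partners, 0.0543 for transcriptional control, and -0.0473 for the accessory list, which changed sign. With the trend removed they were 0.383 for the alpha ring, 0.225 and 0.154 for the structural and catalytic beta subunits, 0.47 for the ATPases and 0.567 for the lid. The cause was not tested, except that nuclear scaling shifts every gene alike by construction. The median of the core chaperones was 0.14 with TMM, -0.06 with nuclear counts and -0.04 with the trend removed. Depth limits Psmg3, Psmd10 and Psma8.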
